A study of Mus musculus with 8 samples.

Results

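The genes described here are 6 interferon-linked antiviral genes and the 4 genes of the mouse Phf11 cluster, 10 of the 55414 genes counted in cultured mouse cardiac fibroblasts. They are Parp9, Parp10, Parp12 and Parp14 of the PARP family, Dtx3l, the partner of Parp9, Zc3hav1, and Phf11a, Phf11b, Phf11c and Phf11d. The genes were chosen by name, and the choice was made with their fold changes between the 2 viruses already known. Those fold changes are therefore given as a description with their standard errors and no p, and counts of calls among them on that contrast are no evidence about the genes. All 10 genes passed the filter on low counts, which kept 15150 genes.

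The cells were passage 2 fibroblasts from hearts of C57BL/6J mice. Per the labels the genotype was wild type, whereas the treatment protocol names mice with a floxed Has2 gene. They were starved of serum for 24 h, exposed to an adenovirus for 5 h, and collected 48 h after a change to medium with bFGF and TGFb, listed at 20 ng/mL. The control group received an adenovirus for green fluorescent protein (GFP) and the other group an adenovirus for Has2, the gene of hyaluronan synthase 2. Every culture thus received an adenovirus and the same growth factors, and there was no uninfected group among the libraries analysed. Each virus had 4 libraries of messenger RNA, with replicates 1 and 2 female and replicates 3 and 4 male. Libraries of 1 number share a preparation identifier in both groups, so each number forms a pair. Hearts were plated at 1 heart to a flask, but the labels leave unsaid whether each preparation was another animal. The p values therefore cover the spread among these libraries, which may be technical. The preparation identifiers start with S in females and R in males, so an effect of sex and one of preparation series cannot be told apart.

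Libraries held 46981231 to 55795187 counts. Has2 itself stood at 7.36 to 25.2 CPM, the counts scaled to library size, in the GFP cultures and at 3207 to 9527 CPM in the Has2 cultures, in the direction of the labels. Within the Has2 group it stood at 9527 and 8400 CPM in the females and at 3207 and 4857 CPM in the males. The 8 fibroblast markers summed to 13798 to 19978 CPM in the GFP group and 13680 to 19776 CPM in the Has2 group. Macrophage markers were present as well, at 1018 to 2520 CPM summed over 15 genes in the GFP group and 953 to 2678 CPM in the Has2 group, with a median log2 fold change of 0.05. Lymphocyte markers summed to at most 0.138 CPM in any library, with Nkg7 at 0 in all of them. In bulk RNA, fewer cells of a type and less RNA per cell cannot be told apart.

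PARP enzymes transfer ADP-ribose from NAD+ to proteins or nucleic acids. Several members of the family are induced by interferons, the cytokines that switch infected cells and their neighbours into an antiviral state through STAT and IRF transcription factors. Parp10, Parp12 and Parp14 add single ADP-ribose units. Parp9 works as a pair with Dtx3l, a ubiquitin ligase of the Deltex family. Zc3hav1 encodes ZAP, also called PARP13, which has a PARP fold without catalytic activity and binds CpG-rich viral RNA for degradation. Phf11 proteins carry a PHD zinc finger; human PHF11 acts as a transcriptional coactivator, and roles of the single mouse copies are less well known.

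The interferon-stimulated response element is a DNA sequence through which interferon factors act on many interferon-induced genes. Promoter windows of 300 bases that end 50 bases after the gene start were read from RefSeq (GRCm38.p6) and matched 7 of the 10 genes. Each was searched on both strands for the core of that element, GAAANNGAAA, and for the shorter IRF core AANNGAAA, which every longer match also holds. The longer core lay in 2 of the 7 windows, those of Phf11a and Phf11b, and in 3.44% of 32851 windows genome-wide. The shorter core lay in 4 of the 7, those of Phf11a, Phf11b, Phf11d and Dtx3l, and in 23.9% of all windows. The windows of Parp12, Zc3hav1 and Phf11c held neither set of letters. The stretches with a match are printed 5′ to 3′ on the minus strand, the strand of these genes, with the match in capitals, to show how alike the Phf11a and Phf11b starts are.
Phf11a, chr14:59297522-59297571: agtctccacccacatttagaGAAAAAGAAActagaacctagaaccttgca
Phf11b, chr14:59341351-59341400: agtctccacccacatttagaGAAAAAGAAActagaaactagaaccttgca
Phf11d, chr14:59365466-59365513: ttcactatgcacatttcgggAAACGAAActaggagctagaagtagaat
Dtx3l, chr16:35938978-35939005: caaggagggaccttctggggAATCGAAA
The match lay 29 to 20 bases before the start in Phf11a and 50 to 41 bases before it in Phf11b. It spanned the start in Phf11d and lay at bases 42 to 49 after it in Dtx3l. A match of letters is a description and not a measured binding site.

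In the control cultures the 10 genes covered a wide range of levels. Divided by the length of the longest annotated transcript, the GFP group means were 21.6 ± 3.73 CPM per kb (SD, n = 4) for Zc3hav1, 20.1 ± 2.5 for Parp9, 20.0 ± 4.34 for Phf11d and 14.5 ± 1.93 for Parp12. The first 3 of these levels lay within an SD of each other, and Parp12 lay below them by more than an SD. A middle group followed, with Parp10 at 8.47 ± 0.813, Dtx3l at 7.93 ± 1.49, Phf11b at 6.89 ± 1.29 and Parp14 at 6.58 ± 2.39 CPM per kb, and again neighbours in this order were not separated by their spread. Phf11a at 0.874 ± 0.299 and Phf11c at 0.165 ± 0.0449 CPM per kb were far lower. In the Has2 group Phf11d stood at 10.9 CPM per kb, below Parp12 at 11.5, and Phf11b at 4.11, below Parp14 at 4.26; the other genes kept their places in the order.

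All 10 genes had a lower fitted level with the Has2 virus, against 51.4% of all genes tested. The median of their log2 fold changes was -0.47, and that of all genes -0.01. Within single pairs the median over the 10 genes was -0.65, -0.45, -0.32 and -0.65 in replicates 1 to 4. With the replicate number as a block the SEs of the 10 genes ran from 0.10 for Phf11d to 0.25 for Phf11c, and the median was -0.46; SEs given for single genes are without the block unless stated. Of the 10, 7 genes were lower with Has2 in all 4 pairs, a pattern that 7.94% of all genes showed, and in 3 genes every Has2 library lay below every GFP library, as in 1.51% of all genes. None of the 10 passed an adjusted p of 0.05 in edgeR's quasi-likelihood test, where 0.0066% of all genes were called, Has2 alone. With DESeq2 and the replicate number as a block 2 of the 10 were called, against 0.403% of all genes. The genes were selected on this contrast, so no support is read from these counts.

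**Figure D1:**
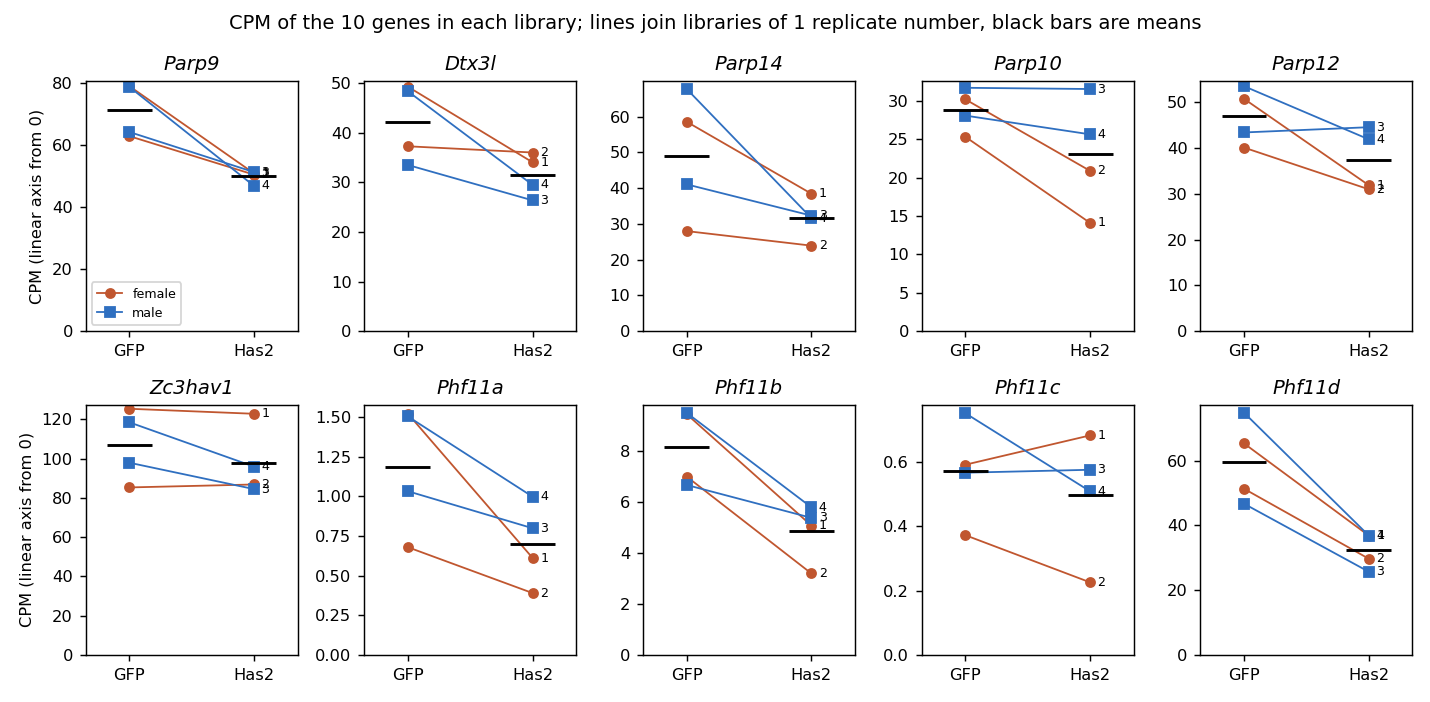
CPM of each of the 10 genes in the 8 libraries on linear axes from 0, with GFP and Has2 libraries of 1 replicate number joined by a line, females as circles, males as squares and group means as black bars. Lines slope down in all 4 pairs for 7 genes, and the groups do not overlap for Parp9, Phf11b and Phf11d.

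Parp9 and Dtx3l, which encode the partner proteins, lie head to head on opposite strands. Parp9 (ENSMUSG00000022906) stood at 79.1, 62.9, 64.3 and 78.8 CPM in GFP replicates 1 to 4 and at 50.9, 50.5, 51.3 and 46.9 CPM in Has2 replicates 1 to 4. Each Has2 library was below each GFP library, and the Has2 libraries lay within a narrower band. The means were 71.3 ± 8.88 and 49.9 ± 2.04 CPM (SD, n = 4 each), a log2 fold change of -0.51 with an SE of 0.12, or a mean 1.43-fold higher with GFP. Dtx3l (ENSMUSG00000049502) stood at 49.3, 37.3, 33.5 and 48.4 CPM with GFP and at 34.0, 36.0, 26.4 and 29.5 CPM with Has2. Has2 was the lower library of every pair, but in pair 2 by only 0.05 on the log2 scale, and the groups overlapped. Its log2 fold change was -0.42 with an SE of 0.17.

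The ratio of Parp9 to Dtx3l overlapped between the groups. In CPM it was 1.6, 1.69, 1.92 and 1.63 in the GFP libraries and 1.5, 1.40, 1.95 and 1.59 in the Has2 libraries. The annotated ends of both genes overlap, and an antisense transcript, Gm15564, lies within Parp9 at 24.3 ± 6.53 CPM with GFP and 16.4 ± 4.59 CPM with Has2. The strand setting of the counting is not given in the sources used here, so reads where these genes overlap are uncertain.

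Parp14 encodes a macrodomain PARP that acts with STAT6 in cytokine signalling, and it neighbours Dtx3l. Parp14 (ENSMUSG00000034422) stood at 58.5, 28.0, 41.0 and 67.7 CPM with GFP and at 38.4, 23.9, 32.3 and 31.6 CPM with Has2. Pair 4 differed most, by -1.10 on the log2 scale, and pair 2 least, by -0.23, while the groups overlapped because GFP replicate 2 was low. The means were 48.8 ± 17.8 and 31.6 ± 5.95 CPM, a log2 fold change of -0.63 with an SE of 0.27. Relative to the mean, the spread among its GFP libraries was the widest of the 10 genes.

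Parp10 and Parp12 are mono-ADP-ribosyltransferases outside that locus. Parp10 (ENSMUSG00000063268) stood at 25.3, 30.2, 31.7 and 28.1 CPM with GFP and at 14.1, 20.9, 31.6 and 25.7 CPM with Has2. The female Has2 libraries were the lowest of all, whereas male pair 3 differed by only -0.01 on the log2 scale and male pair 4 by -0.13. The log2 fold change was -0.32 with an SE of 0.22 over all libraries, -0.69 in females and -0.07 in males. Parp12 (ENSMUSG00000038507) stood at 50.7, 40.1, 43.4 and 53.5 CPM with GFP and at 31.9, 31.0, 44.5 and 41.9 CPM with Has2. Pair 3 went slightly the other way, by 0.04 on the log2 scale, and the groups overlapped. Its log2 fold change was -0.33 with an SE of 0.16. In the annotation Parp10 overlaps Plec on the same strand, so reads there may have been divided in a way not known here.

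Zc3hav1, the gene of ZAP, had the smallest log2 fold change of the 10 genes. Zc3hav1 (ENSMUSG00000029826) stood at 125, 85.3, 97.9 and 118 CPM with GFP and at 123, 86.8, 84.4 and 95.9 CPM with Has2. The female pairs were nearly level, at -0.03 and 0.03 on the log2 scale, and the male pairs lower with Has2, at -0.21 and -0.31. The means were 107 ± 18.5 and 97.5 ± 17.6 CPM, and the log2 fold change was -0.13 with an SE of 0.17. With the replicate block it was again -0.13, with an SE of 0.10.

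Phf11d was the most abundant gene of its cluster and had the largest log2 fold change of the 10 genes over all libraries. Phf11d (ENSMUSG00000068245) stood at 65.3, 51.3, 46.7 and 74.8 CPM with GFP and at 36.9, 29.7, 25.7 and 36.9 CPM with Has2. Every Has2 library was below every GFP library, and the pairs differed by similar amounts, -0.83, -0.79, -0.86 and -1.02 on the log2 scale. The means were 59.6 ± 12.9 and 32.3 ± 5.54 CPM, a log2 fold change of -0.88 with an SE of 0.19, or a mean 1.84-fold higher with GFP.

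Phf11b, at a lower level, was also separated between the groups. Phf11b (ENSMUSG00000091649) stood at 9.46, 7.01, 6.68 and 9.51 CPM with GFP and at 5.08, 3.20, 5.38 and 5.80 CPM with Has2. The pair differences were uneven, from -1.13 in pair 2 to -0.31 in pair 3 on the log2 scale, although no library overlapped the other group. The log2 fold change was -0.75 with an SE of 0.23, or a mean 1.68-fold higher with GFP.

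The other two Phf11 genes were counted in few reads. Phf11a (ENSMUSG00000044703) had 72, 31, 51 and 76 counts with GFP and 34, 19, 43 and 49 counts with Has2, or 1.18 ± 0.405 and 0.699 ± 0.260 CPM. Has2 was lower in every pair, the groups overlapped, and the log2 fold change was -0.76 with an SE of 0.37. Phf11c (ENSMUSG00000091144) had 28, 17, 28 and 38 counts with GFP and 38, 11, 31 and 25 counts with Has2. It was lower in pairs 2 and 4 and higher in pairs 1 and 3, and its log2 fold change of -0.19 was smaller than its SE of 0.37.

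Phf11a and Phf11b are near-identical in parts. Of the 50-base windows of the Phf11a transcript, 34.3% also occur in another Phf11 gene or in Gm6904, a predicted copy in the cluster. The share was 47% for Phf11b, 10.2% for Phf11c and 12.2% for Phf11d, whereas the PARPs, Dtx3l and Zc3hav1 shared none with the other genes of the set. Reads that lie wholly within shared sequence cannot be assigned to 1 copy from that sequence alone. How the counting treated such reads is not given in the sources used here. The deposited counts of the cluster were also summed, which cannot restore reads that were left out. The sum was 76.9, 59.4, 55.0 and 86.6 CPM with GFP and 43.2, 33.5, 32.4 and 44.2 CPM with Has2. The groups did not overlap, at 69.5 ± 14.8 and 38.4 ± 6.22 CPM, and the pairs differed by -0.83, -0.83, -0.76 and -0.97 on the log2 scale. Phf11d made up 85.0 to 86.4% of the summed counts in the GFP libraries and 79.2 to 88.6% in the Has2 libraries, and Phf11b 11 to 12.3% and 9.54 to 16.6%. The sum therefore mainly restates Phf11d and says little about Phf11a and Phf11b.

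**Figure D2:**
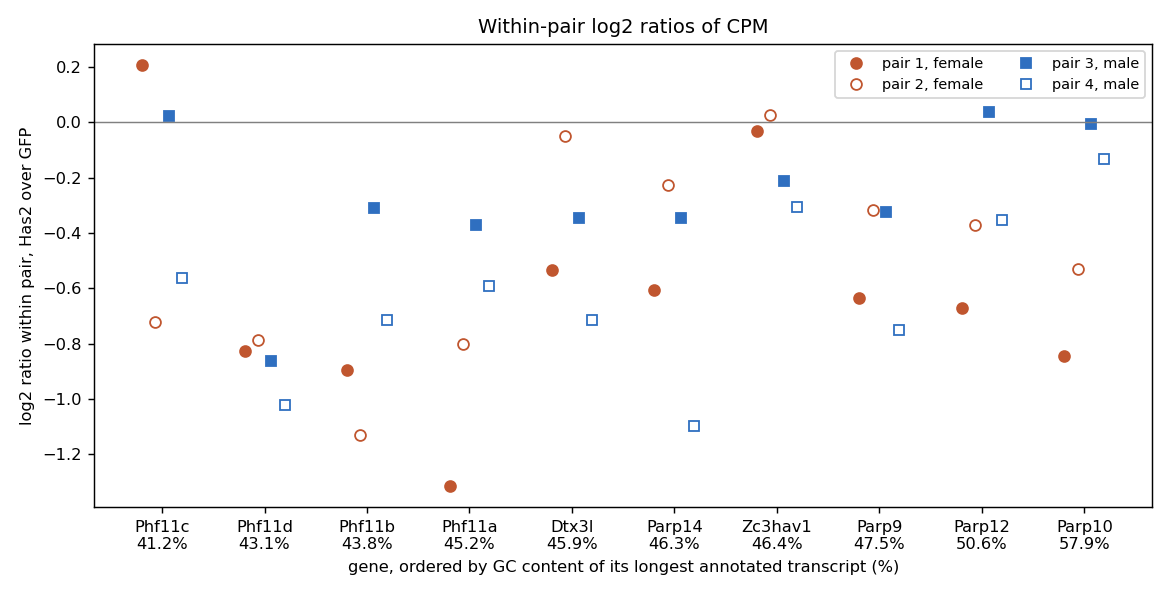
Log2 ratio of CPM, Has2 over GFP, within each of the 4 pairs for the 10 genes, which are ordered by the GC content of their longest annotated transcript in percent. The 4 ratios of Phf11d lie between -0.79 and -1.02, whereas those of Parp10 range from -0.84 in female pair 1 to -0.01 in male pair 3.

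The virus effect was then compared between the sexes, a contrast the choice of genes did not use. Has2 itself was lower in the male than in the female Has2 libraries, so the sexes are not compared at an equal Has2 level. The medians over the 10 genes were -0.50 in females and -0.50 in males, against -0.01 and 0.04 over all genes. Each median is the selected virus contrast within 1 sex, so only the difference between the sexes was tested. Estimates of some single genes differed more between the sexes than these medians. Without a block, edgeR called 0% of all genes for the interaction of sex and virus, and none of the 10; 2014 genes but none of the 10 had an unadjusted p under 0.05. With the replicate number as a block 29.5% of all genes were called, and 1 of the 10, which is no larger a share than in the background. That gene was Parp10, whose log2 fold change was less negative in males by 0.62 (SE 0.14, 95% interval 0.30 to 0.94, edgeR adjusted p = 0.00907). Without the block the difference was 0.60 with a 95% interval from -0.13 to 1.33 and an edgeR adjusted p of 0.459.

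Within pairs the log2 change of all genes went with the GC content and the length of their transcripts, each in opposite directions in the sexes. Spearman's rho with GC content over 15123 genes was -0.22 and -0.17 in the female pairs and 0.66 and 0.64 in the male pairs. With length it was 0.25 and 0.49 in the female pairs and -0.10 and -0.36 in the male pairs, across genes that are not independent of each other. At 57.9% Parp10 had the highest GC content of the 10 genes, which otherwise ran from 41.2% for Phf11c to 50.6% for Parp12. With the trends of GC content and length removed together from every library and the block kept, the Parp10 difference was 0.25 with an edgeR adjusted p of 0.251. For the virus contrast the same correction moved Phf11d from -0.88 to -0.71, Phf11b from -0.75 to -0.54 and Parp10 from -0.32 to -0.51, and Phf11c from -0.19 to 0.07. Parp9 was at -0.55 and Parp14 at -0.60 after it, and the median of the 10 genes at -0.53.

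Interaction estimates of the other 9 genes ran from -0.30 for Parp14 to 0.62 for Phf11a on the log2 scale with the block, and none was called. For Phf11d, whose pairs were the most even, the difference was -0.14 with an SE of 0.12 (edgeR adjusted p = 0.453 with the block). For Phf11b the difference was 0.49 with an SE of 0.21 (edgeR adjusted p = 0.101 with the block). A p that misses the threshold does not show that the sexes responded alike.

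Levels of the 10 genes were also compared between male and female cultures over both viruses. edgeR called 0.383% of all genes and none of the 10, and none of the 10 had an unadjusted p under 0.05, against 3345 of the 15150 genes tested. Parp10 stood at 22.6 ± 6.84 CPM in females and 29.3 ± 2.93 CPM in males (n = 4 libraries each), a log2 difference of 0.41 with an SE of 0.19 and an edgeR adjusted p of 0.238. Parp9 differed by -0.02 with an SE of 0.12 (edgeR adjusted p = 0.942) and Phf11d by -0.02 with an SE of 0.19 (edgeR adjusted p = 0.967). The libraries of 1 number share a preparation, so these are not 8 independent cultures.

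**Figure D3:**
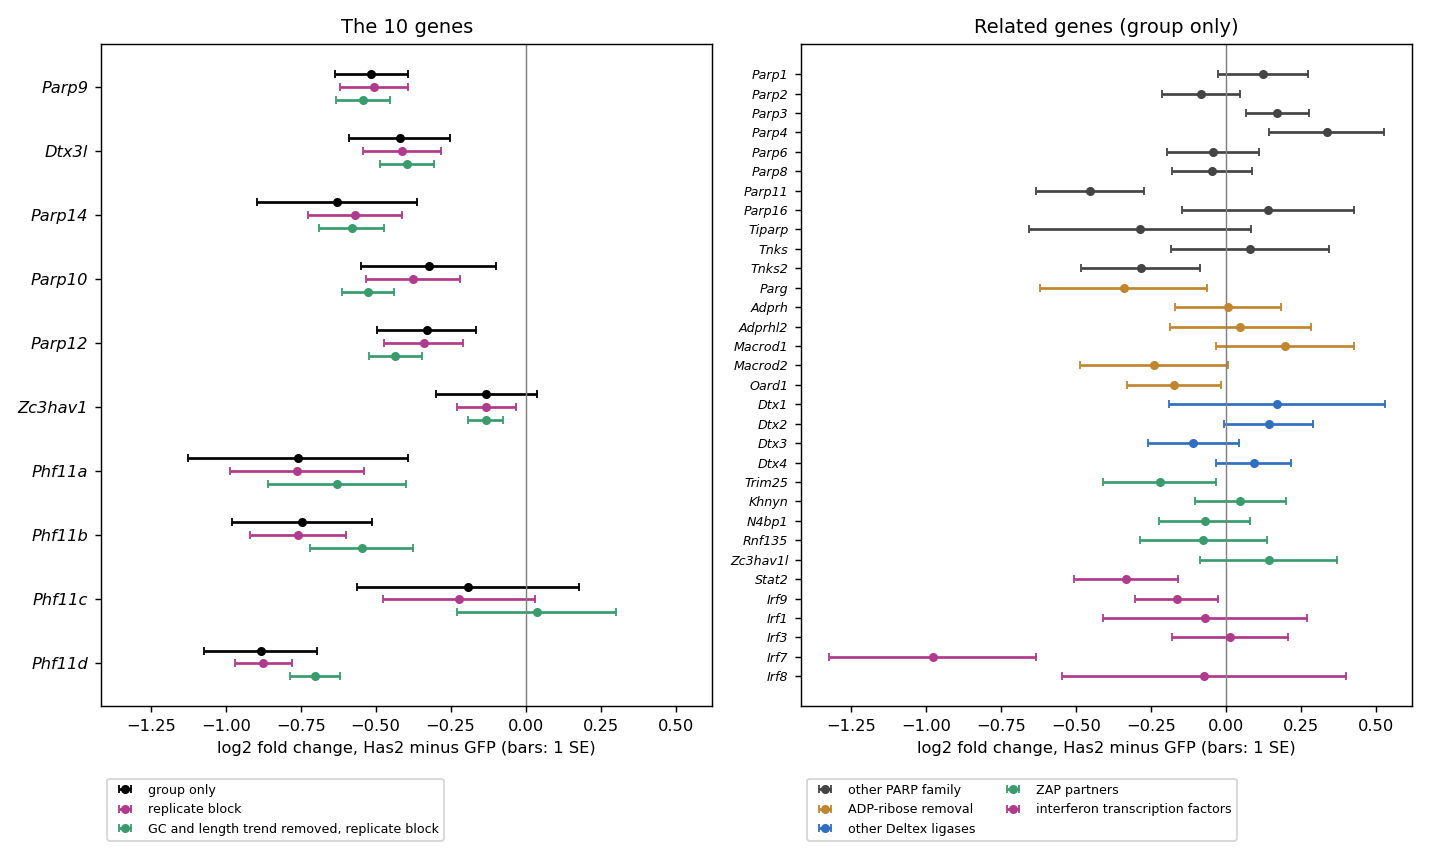
Log2 fold change, Has2 minus GFP, with bars of 1 SE, for the 10 genes under 3 fits (left) and for the related gene lists with group as the only term (right). The block narrows the bars of the 10 genes, and of the related genes Irf7 and Parp11 lie farthest to the left.

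The other PARP genes were spread around the median of all genes. Of 11 other PARP genes tested, 6 were lower and 5 higher with Has2, none was called by edgeR, 1 had an unadjusted p under 0.05, and the median log2 fold change was -0.04. That gene was Parp11, a mono-ADP-ribosyltransferase, at 27.5 ± 5.50 CPM with GFP and 20.1 ± 2.75 CPM with Has2, and lower in all 4 pairs. Its log2 fold change was -0.45 with an SE of 0.18 (edgeR adjusted p = 1.00). Parp1, the main nuclear enzyme of DNA damage signalling, was at 0.12 with an SE of 0.15 and higher with Has2 in all 4 pairs, and Parp2 at -0.08 with an SE of 0.13. Parp3 at 0.17 (SE 0.10) and Parp4 at 0.34 (SE 0.19) were also higher with Has2 in all 4 pairs, and none of the 3 was called. Tiparp, a target of the aryl hydrocarbon receptor, was at -0.29 with an SE of 0.37. Parp6, Parp8, Parp16 and the tankyrases Tnks and Tnks2 lay between -0.28 and 0.14.

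Enzymes that remove ADP-ribose and the other Deltex ligases were near the median of all genes. Of 7 listed removal enzymes 6 were tested, 3 lower and 3 higher, with a median of -0.08. Parg, which cleaves poly(ADP-ribose) chains, was the lowest at -0.34 (SE 0.28), and Macrod1 the highest at 0.20. Adprh and Adprhl2 stood at 0.01 and 0.05, Oard1 at -0.17 and Macrod2 at -0.24, and Adprhl1 had 1 count in all. Dtx1, Dtx2 and Dtx4 were at 0.17, 0.14 and 0.09 and Dtx3 at -0.11, against -0.42 for Dtx3l. Dtx3 was lower and Dtx4 higher with Has2 in all 4 pairs. None of these 10 genes was called by edgeR, and none had an unadjusted p under 0.05.

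Partners of ZAP were likewise near the median of all genes, at -0.07 over 5 genes. Trim25, the ubiquitin ligase that ZAP needs for its antiviral action, was lower in all 4 pairs, at 84.3 ± 17.3 CPM with GFP and 72.4 ± 13 CPM with Has2 (log2 fold change -0.22, SE 0.19). Khnyn, the endonuclease that works with ZAP, was at 0.05, N4bp1 at -0.07, Rnf135 at -0.08 and Zc3hav1l at 0.14. No partner was called by edgeR or had an unadjusted p under 0.05.

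Of 6 interferon transcription factors, 5 were lower with Has2, with a median log2 fold change of -0.12. None was called by edgeR, and 1, Irf7, had an unadjusted p under 0.05. Irf7, the factor that amplifies interferon production, stood at 205 ± 46.1 CPM with GFP and 104 ± 50.4 CPM with Has2, lower in all 4 pairs (log2 fold change -0.98, SE 0.35, edgeR adjusted p = 1.00). Stat2 was at -0.33 (SE 0.17) and Irf9, which is part of an interferon-activated DNA-binding complex, at -0.16 (SE 0.14). Irf1 and Irf8 were both at -0.07, with SEs of 0.34 and 0.47, and Irf3 at 0.02. Of the 5 lists of related genes, only Irf7 was called with DESeq2 and the replicate block (DESeq2 adjusted p = 0.0176), as 1 of the 61 genes called there. With edgeR and the replicate block Irf7 was not called (edgeR adjusted p = 0.648). The lists were chosen with earlier results of these data known, so no support is read from this call.

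**Figure D4:**
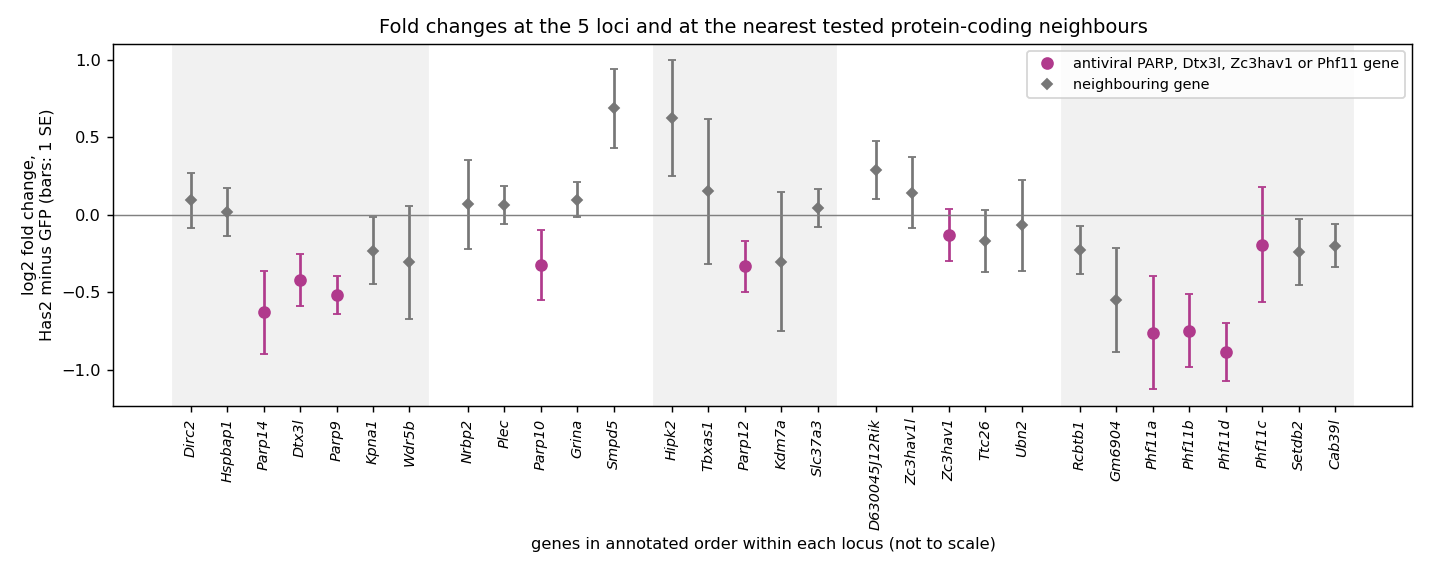
Log2 fold change, Has2 minus GFP, with bars of 1 SE, of the 10 genes and of the nearest tested protein-coding neighbours, in annotated order at 5 loci shaded alternately and not to scale. Neighbours spread around 0 with a median of 0.03. The 3 genes of the Parp14, Dtx3l and Parp9 locus lie below both flanks. Zc3hav1 at -0.13 lies above its neighbour Ttc26 at -0.17, and Phf11c at -0.19 lies above every neighbour of its cluster. The 10 genes were selected on this contrast and the neighbours were not.

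The neighbouring genes were spread around 0. Over 20 neighbouring genes the median log2 fold change was 0.03, 9 were lower with Has2, none was lower in all 4 pairs, none was called by edgeR and 1, Smpd5, had an unadjusted p under 0.05. At the Parp14, Dtx3l and Parp9 locus, Dirc2 and Hspbap1 on one side were at 0.09 and 0.02, and Kpna1 and Wdr5b on the other at -0.23 (SE 0.22) and -0.31 (SE 0.36). Beside the Phf11 cluster, Rcbtb1 was at -0.22 (SE 0.16), Setdb2 at -0.24 (SE 0.21) and Cab39l at -0.20 (SE 0.14). Gm6904, the predicted Phf11 copy, was at -0.55 (SE 0.34). Beside Parp10, Nrbp2 and Plec were at 0.07 and 0.06 and Grina, the nearest on the other side, at 0.10 (SE 0.11) and higher with Has2 in all 4 pairs. Smpd5, the gene beyond Grina, was likewise higher with Has2 in all 4 pairs, at 0.805 ± 0.134 and 1.30 ± 0.256 CPM (log2 fold change 0.69, SE 0.25, edgeR adjusted p = 1.00).

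Correlations over the 8 libraries, after subtracting each group's mean, describe how the 10 genes varied together; the points share preparation and sequencing depth. Phf11a and Phf11b, which share transcript sequence, were at Pearson's r = 0.895. Parp12 and Phf11a, which share no 50-base window, were nearly as close at r = 0.888. Parp14 varied with Zc3hav1 at r = 0.84. At the shared locus, Parp9 varied with Parp14 at r = 0.80 and with Dtx3l at r = 0.75, and Parp14 with Dtx3l at r = 0.48. Against the mean of the other 9 genes, Parp14 stood at r = 0.90 and Dtx3l at 0.22. Parp10 was the only gene below 0, at r = -0.20, and its r with Zc3hav1 was -0.73, the lowest of any pair of genes. The levels used here were not corrected for GC content or length, and Parp10 had the highest GC content of the 10 genes, 57.9%. Whether GC content bears on these correlations was not tested.

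Genes outside the set were ranked by the likeness of their log2 CPM to the mean of the 10 over the 8 libraries, among 10295 genes with a mean of at least 5 CPM. As measured, with the virus difference left in, genes among the closest 5 were Ifit1 at r = 0.988, Irgm2 at 0.974, Parp11 at 0.970 and Trim21 at 0.961. Ifit1 binds foreign RNA caps, Irgm2 is an interferon-inducible GTPase, and Trim21 is an antibody receptor in the cytosol. The log2 fold change of Ifit1 was -0.97 (SE 0.25) and that of Irgm2 -0.38 (SE 0.15). With group means subtracted the closest 5 included Ranbp10 at r = 0.993, Prex1 at 0.989, Sh3bp2 at 0.984 and Zfp263 at 0.982.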

How the data were processed

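Messenger RNA of 8 cultures was made into libraries with a kit that keeps strand, per the labels' protocols. The values the authors deposited are raw counts for each Ensembl gene. FastQC 0.10.1 and HTSeq 0.10.0 were used, with the build mm39 (GRCm39), per the submitters' processing notes. Neither the aligner nor the annotation release or strand setting is given in the sources used here. Symbols, transcript length and GC content came from GENCODE M21, on an older build, which matched 52081 of 55414 identifiers; identifiers without a symbol held 0.405 to 0.871% of a library's counts.

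The 10 genes, the lists and the tests were chosen with earlier results of these data known. edgeR 4.0.16 (R 4.3.3) was run on the whole table with TMM scaling, the default filter (minimum count 10), group as the only term, the quasi-likelihood F-test and Benjamini-Hochberg adjustment over the 15150 genes tested, called under 0.05. The interaction added sex, and the level comparison used group and sex. CPM are counts divided by the TMM-scaled library total, times 1000000. Likeness used log2 CPM with a pseudocount of 2. Genes named are the 10, Has2, every gene of 5 related lists, the nearest 2 tested protein-coding neighbours on each side of a locus and the 5 genes most alike; the lists of cell type markers are given as sums. A few genes that this rule or the lists would name are not reported here.

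Libraries of 1 replicate number share preparation identifiers, which is the ground for pairing them. Their deviations from their group's mean correlated at 0.58, 0.62, 0.53 and 0.44. Libraries of different numbers were not compared in this way, so these values do not test the pairing. Replicates of a group differed by more than counting noise, with a chi-square of 41.8 to 333 per degree of freedom. The median SE of a log2 fold change was 0.23 without a block and 0.14 with it. Alternatives were a block for replicate number, a term for sex, other scalings and filters, leaving out libraries or replicate numbers, each sex alone, DESeq2 1.42.0, limma-voom 3.58.1 and removal of GC and length trends (natural splines, 5 degrees of freedom each). Tests were tried on simulated counts. The Cre virus named in the protocol is not analysed here.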

Additional observations from a re-analysis of the deposited data

Results flagged for a closer look

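In a test of the difference itself, the virus effect on Parp10 was called different between the sexes only with the replicate number as a block. With that block the log2 fold change was less negative in males by 0.617 (edgeR adjusted p = 0.00907). The effect was -0.69 in the 2 female pairs and -0.07 in the 2 male pairs. The test with the block called 29.5% of all genes, so 1 call among the 10 is no larger a share. Without the block, as in the main fit, the difference was 0.60 (95% interval -0.13 to 1.33, edgeR adjusted p = 0.459). With the block and with GC and length trends removed it was 0.25 (edgeR adjusted p = 0.251). Effects of sex, of preparation series and of the lower Has2 level in the male Has2 libraries cannot be told apart. Of 20 groups of 4 libraries, 2 for each of the 10 genes, none held a library far apart from its group by Dixon's criterion.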

How the results depend on the processing

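Of 639 values recomputed under other processing, 614 kept their direction and side of the threshold or moved by less than the replicate spread. For the virus comparison, 1 gene was called, and 7 were with DESeq2, 61 with DESeq2 and the replicate block, 2 with GC and length trends removed and the block, 0 in females alone and 1415 in males alone. Of the 10 genes, which were selected on this contrast, 2 were called with DESeq2 and the block, from which nothing is read. Related lists gave 3 calls in males alone (Tiparp at -1.12, Tnks2 at -0.71 and Parg at -1.0) and 1 with DESeq2 and the block, and the neighbouring genes 3 in males alone (Kpna1 at -0.69, Kdm7a at -1.38 and Rcbtb1 at -0.53). Calls in the related lists are likewise no support, since the lists were chosen with earlier results known. For the interaction, where 0 genes were called, the counts were 4470 with the replicate block, 675 with DESeq2, 1700 with the correction and the block, and 0 to 4 when leaving out 1 library, with 4 without GFP replicate 2; 1 of the 10 genes, Parp10, was called with the block. For the level between sexes, 58 genes were called, 234 with GC and length trends removed, 0 with GFP libraries alone, 0 with counts summed per replicate number (chosen after seeing the data), and 0 to 1244 when leaving out 1 replicate number. The cause of these shifts was not tested.

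Over 26 alternatives the log2 fold change of Phf11d ran from -0.97 to -0.70, with -0.72 without GFP replicate 4, and that of Parp9 from -0.57 to -0.41, Phf11b -0.97 to -0.54, Parp14 -0.82 to -0.40, Dtx3l -0.55 to -0.29, Phf11a -1.11 to -0.50, Parp12 -0.52 to -0.17 and Parp10 -0.65 to -0.07. Zc3hav1 ran from -0.26 to 0.01, above 0 in females alone, and Phf11c from -0.37 to 0.07, above 0 under 4 of 25; Phf11c was not tested under the filter of at least 1 CPM in 4 libraries. With 11 to 76 counts a library, Phf11a and Phf11c are limited by depth.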
